A study of Caenorhabditis elegans with 8 samples.

Results

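FMRFamide-like peptide (flp) and neuropeptide-like protein (nlp) genes of the nematode Caenorhabditis elegans encode the precursors of most of its known small signalling peptides other than the insulin-like ones. The genes described here were taken by symbol alone: every flp or nlp gene with a probe set of its own on the array, which gave 83 of the 17118 genes measured, 25 of them flp and 58 nlp. They were read by 94 probe sets, and 74 of the genes had 1 probe set. For 24 genes, flp-9, flp-18, nlp-36 and nlp-40 among them, every probe set was of the types marked _s_at or _x_at, which may also bind related transcripts. Another 2 genes, nlp-4 and nlp-76, share their probe sets with other genes and were left out. All 83 symbols are in the RefSeq annotation (assembly WBcel235), which holds 109 protein-coding flp and nlp genes.

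A neuropeptide gene makes a long precursor that is cut at pairs of basic residues by the proprotein convertase EGL-3, trimmed by the carboxypeptidase EGL-21, often amidated at its end, and packed into dense core vesicles. The released peptides act through G protein-coupled receptors and set the pace of movement, feeding, egg laying, sleep and stress responses, often with several peptides per behaviour. Some nlp genes have other homes: nlp-40 is made in the intestine, and among nlp-24 to nlp-34, which encode glycine- and tyrosine-rich peptides, nlp-29 and nlp-31 are antimicrobial genes of the epidermis that fungal infection and wounding induce.

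The study measured mRNA in whole-animal pools of strain JK1107, genotype glp-1(q224) III, on Affymetrix C. elegans arrays, and compared embryos with adults early and later in adult life. All samples carry this temperature-sensitive allele of the germ line receptor gene glp-1, under which germ cells do not proliferate at 25°C, and there was no wild-type group. The 3 embryo pools each held about 5000 eggs of mixed stages, freed by bleach and sodium hydroxide from mothers kept at 15°C. The 3 young adult pools (day 1 of adulthood) and the 2 aging adult pools (day 6) each held about 3000 to 5000 animals raised at 25°C from eggs of mothers kept at 15°C, so embryos and adults differ in rearing temperature as well as in stage, and these cannot be told apart. Nothing states that the pools of a group were separate cultures, and p-values therefore measure the spread between these samples, which may be technical.

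Expression is given in array medians: the background-subtracted intensity of a gene divided by the median intensity of all probe sets on that array. The median intensity ran from 19.1 to 21.9 on young adult arrays, from 32.4 to 36.9 on aging adult arrays and from 56.2 to 64.2 on embryo arrays. Negative intensities gave each array a noise level, the size that 95% of them stayed within, and a gene was counted as above noise where at least 1 of its probe sets was. It lay at 1.37 to 1.68 array medians for young adults, at 0.911 to 0.917 for aging adults and at 0.390 to 0.439 for embryos, so the same multiple of the median is less certain in young adults. Over the 5553 genes above that level on all 8 arrays, rank correlations between arrays of a group were lowest among young adults (0.899 to 0.934), 0.970 for the aging adult pair and 0.975 to 0.991 among embryos. Of 18 pan-neuronal markers, 14 to 17 were above noise on each array. Of 15 germ line markers, all 15 were above noise on each embryo array, 1 to 3 on young adult arrays and 4 or 5 on aging adult arrays.

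Of the 83 genes, 53, 54 and 64 were above noise on the embryo arrays, 65, 66 and 71 on the young adult arrays and 73 and 74 on the aging adult arrays. On all 8 arrays 47 genes were above noise, and 5 were on none: flp-23, flp-32, nlp-22, nlp-23 and nlp-90. The RIA interneuron sleep peptide gene nlp-22 had no level above noise at any stage, and its intensity and that of flp-23 were at the floor of 0.01 on every array. The 5 genes flp-17, nlp-5, nlp-61, nlp-91 and nlp-101 were above noise on all 5 adult arrays and on no embryo array. The reverse pattern, above noise on every embryo array but not throughout either adult group, was seen for 2 genes, nlp-24 and nlp-60.

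**Figure D1:**
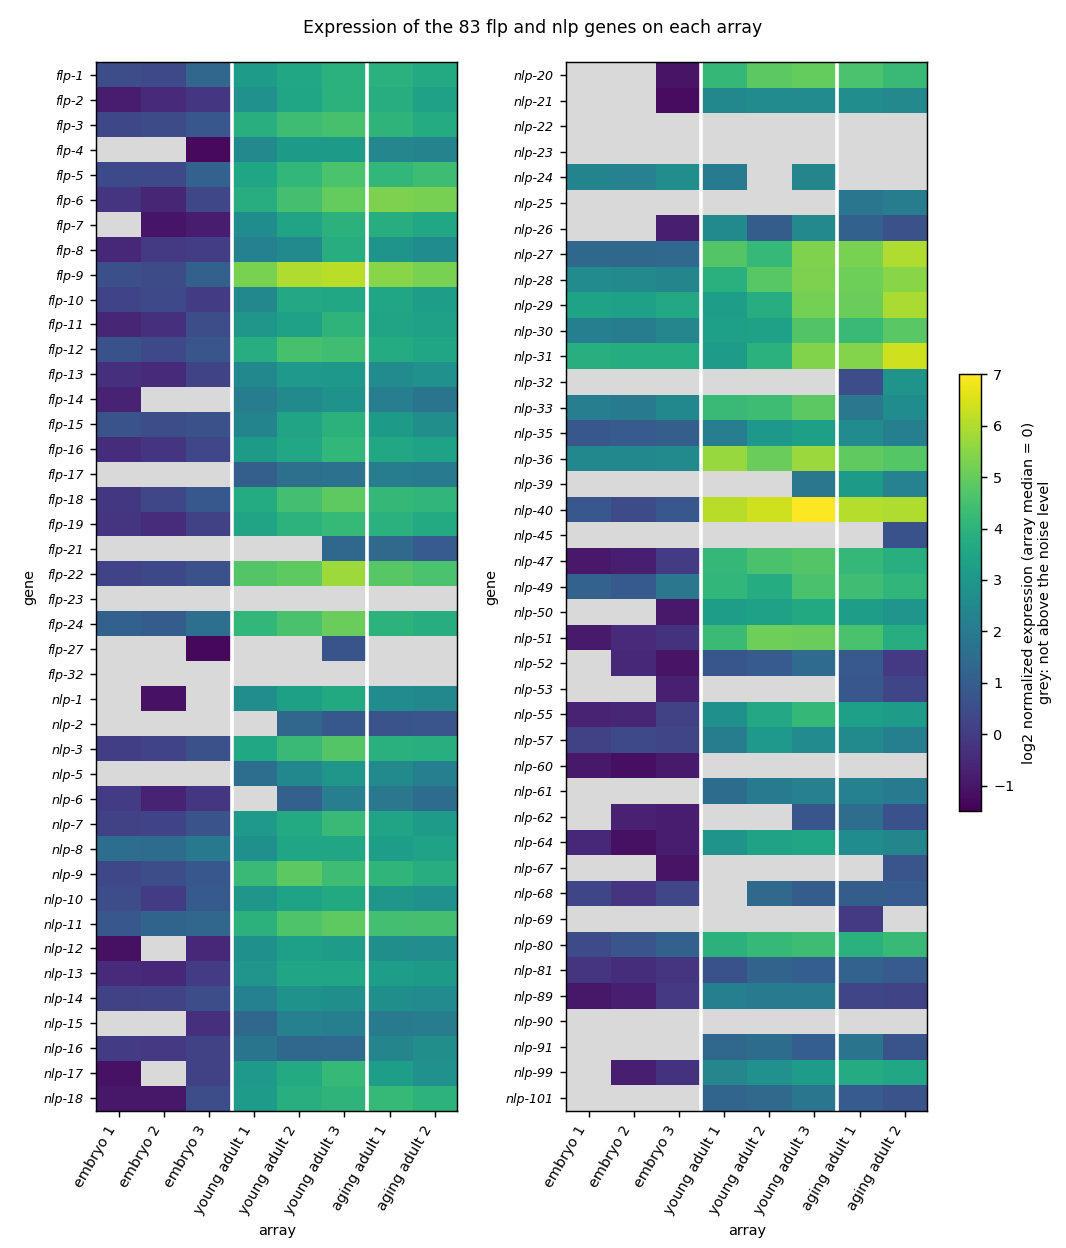
Each row is 1 of the 83 genes and each column 1 of the 8 arrays (3 embryo, 3 young adult, 2 aging adult), with colour giving log2 expression in array medians and grey marking a value at or below that array's noise level. Colours should be compared along a row; most rows are dark or grey on the embryo arrays and lighter on all 5 adult arrays.

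Embryos stood far below adults for most of these peptide genes. Against young adults, 70 of 83 genes were lower in embryos, 0 were higher, and 13 did not pass the test (limma on all 8 arrays, Benjamini-Hochberg adjusted p under 0.05 over all 17118 genes). Over all genes, 31.2% were lower and 22.5% higher in the same test. The 0 genes higher stayed 0 at an unadjusted p under 0.05, where 72 were lower. The median log2 difference was -3.38 for the 83 genes and -0.38 for all genes.

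Not all of these calls rest on a measured adult level. In 60 of the 70 the young adult arrays were all above noise, a share of 72.3% of the 83 genes beside 20.3% of all genes lower and 20.9% higher by the same standard. In the other 10, flp-21, flp-23, nlp-2, nlp-22, nlp-25, nlp-39, nlp-62, nlp-68, nlp-69 and nlp-90, at least 1 young adult array was not, and for flp-23 and nlp-22 the difference only reflects a floor divided by unequal array medians. Among the 60, embryos were above noise on all 3 arrays for 44 genes, whose levels were 2.34-fold (nlp-81) to 56.8-fold (nlp-40) lower in embryos, with a median of 10.5-fold. For 4 genes with no embryo array above noise only a bound could be given, from at least 6.53-fold lower for flp-17 to at least 12.2-fold for nlp-5. The other 12 were above noise on only some embryo arrays, so their fitted differences rest partly on embryo values below noise, in nlp-20 on a value at the floor.

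Scaling moved these values. The embryo arrays had the higher medians, and with intensities left unscaled the median log2 difference between embryos and young adults was 1.19 over all genes and -1.81 over the 83, against -0.38 and -3.38 with scaling. Without scaling, 51 genes were lower in embryos and 1, nlp-24, was higher (log2 difference 2.69, adjusted p = 0.0295). Without _s_at and _x_at probe sets, 48 of the 59 genes that remained were lower. In bulk RNA from whole animals, fewer cells that make a peptide and less mRNA in each such cell cannot be told apart.

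Aging adults gave much the same counts against embryos, with the same embryo arrays in both comparisons. The embryo level was lower for 72 genes and higher for 1 (nlp-24), and 10 did not pass the test, beside 27.1% lower and 17.8% higher among all genes. For 67 of the 72 both aging adult arrays were above noise (80.7% of the 83, beside 21.3% of all genes lower and 16.3% higher by that standard). In 45 of these every embryo array was above noise too, and levels were 1.83-fold (nlp-89) to 44.4-fold (flp-6) lower in embryos, with a median of 10.04-fold. For 9 genes only a bound could be given, from at least 3.90-fold (nlp-2) to at least 15.4-fold (nlp-39).

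**Figure D2:**
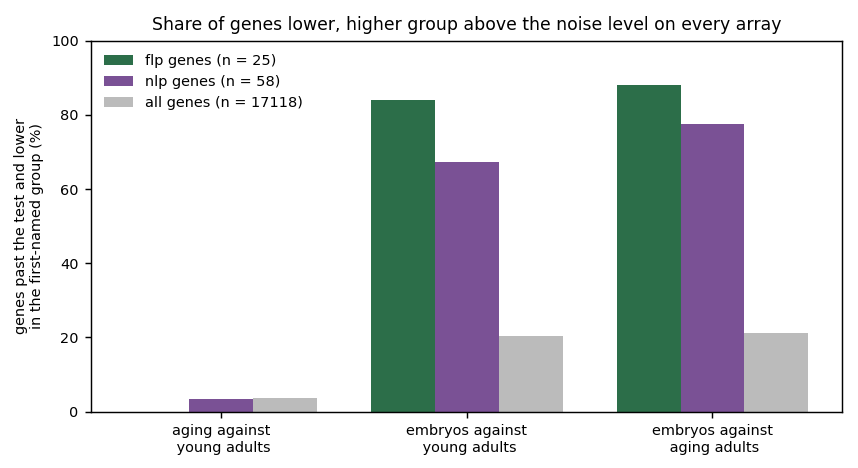
Bars give the percent of flp genes (n = 25), nlp genes (n = 58) and all genes (n = 17118) that passed the test and were lower in the first-named group, counted only where every array of the higher group was above noise. The flp bars stand for 0, 21 and 22 of 25 genes in the 3 comparisons and the nlp bars for 2, 39 and 45 of 58, and for all genes the bars stand at 3.66% for aging against young adults, 20.3% for embryos against young adults and 21.3% for embryos against aging adults.

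Among the FMRFamide-like genes, 23 of 25 were lower in embryos than in young adults and 23 than in aging adults. Over all genes 31.2% and 27.1% were lower. In 21 and 22 of the flp calls every array of the adult group was above noise, beside 20.3% and 21.3% of all genes. Both counts of 23 include flp-23, at the floor on every array, whose difference only reflects unequal array medians. Not past the test in either comparison were flp-27 and flp-32. The gene flp-9 read 1.505, 1.37 and 2.16 array medians in the embryo pools, 39.4, 62.8 and 69.6 in young adults and 45.1 and 38.9 in aging adults, so that the lowest adult pool was far above the highest embryo pool. It was 33.8-fold lower in embryos than in young adults (log2 difference -5.08, SE 0.27, adjusted p = 1.71e-05). For flp-22 the embryo pools read 1.15, 1.28 and 1.54, the young adult pools 26.4, 29.6 and 54.2, and the aging adult pools 27.4 and 24.3, a 26.5-fold difference between embryos and young adults (adjusted p = 2.73e-05).

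The gene flp-6, made in the AFD thermosensory and other neurons, read 0.856, 0.668 and 1.23 in embryos, 13.9, 22.5 and 32.1 in young adults and 40.4 and 38.5 in aging adults. Its 2 aging adult pools were above all young adult pools, yet the adult difference of 0.87 (SE 0.39) did not pass the test (adjusted p = 0.230). Against aging adults it was 44.4-fold lower in embryos (adjusted p = 8.07e-05). For flp-7, with 2 of 3 embryo arrays above noise, the embryo pools read 0.372, 0.494 and 0.549 and the aging adult pools 13.97 and 11.9. The level of flp-4 was above noise on 1 embryo array (0.431, 0.172 and 0.411) and 5.63, 8.74 and 8.72 in young adults.

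Peptides of movement, feeding and egg laying were all lower in embryos. All 9 measured genes of that list passed the test against young adults, with a median log2 difference of -3.88. All 9 also passed against aging adults, with -3.60. Over the 83 genes 84.3% and 86.7% were lower in these comparisons, and over all genes 31.2% and 27.1%. In 8 of the 9 genes every young adult array was above noise, and in all 9 genes both aging adult arrays were. One of them is flp-18, whose peptides activate the receptor NPR-1 in the control of feeding and foraging: it read 0.914, 1.23 and 1.79 in embryos, 13.3, 22.2 and 30.0 in young adults and 17.7 and 16.9 in aging adults. The 16.4-fold difference between embryos and young adults passed the test (log2 difference -4.03, SE 0.35, adjusted p = 0.00011). A second NPR-1 ligand gene, flp-21, was above noise on no embryo array (0.207, 0.0931 and 0.358), on 1 young adult array (1.23, 1.59 and 2.54) and on both aging adult arrays (2.70 and 1.98).

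The genes flp-10 and flp-17 encode peptides that inhibit egg laying through the receptor EGL-6. In young adults flp-10 read 5.57, 12.5 and 11.97 beside 1.15, 1.28 and 0.982 in embryos, an 8.31-fold difference (adjusted p = 0.000268). Embryos had no flp-17 signal above noise (0.181, 0.306 and 0.135), while young adults read 2.09, 3.12 and 3.15 and aging adults 4.29 and 3.89. The egg-laying gene nlp-3, made in the HSN motor neurons, read 1.06, 1.16 and 1.54 in embryos and 12.1, 18.9 and 26.5 in young adults. In each of these 3 genes the lowest adult pool lay above the highest embryo pool. For flp-1, which is needed for normal sinusoidal movement, embryos read 1.44, 1.30 and 2.49, young adults 9.06, 11.9 and 15.4, and aging adults 15.2 and 13.1, and the embryo difference from young adults was 7.08-fold (adjusted p = 0.000261). All 3 of its probe sets read lower on every embryo array than on any adult array. The level of nlp-9 was 1.23, 1.45 and 1.76 in embryos and 18.8, 28.9 and 20.4 in young adults.

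The intestinal peptide gene nlp-40, whose product times the defecation motor program through the receptor AEX-2, had the widest measured gap between embryos and young adults. Its 3 embryo pools read 1.74, 1.36 and 1.77, its young adult pools 68.4, 83.6 and 134, and its aging adult pools 66.1 and 63.6. The fitted difference was 56.8-fold (log2 -5.83, SE 0.26, adjusted p = 1.01e-05). Intestine markers moved with it: 14 of 15 were lower in embryos than in young adults, beside 31.2% of all genes. Their summed level was 98.7 to 126 array medians in embryos and 3146 to 3581 in young adults. The part of that shift in the nlp-40 result was not tested.

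**Figure D3:**
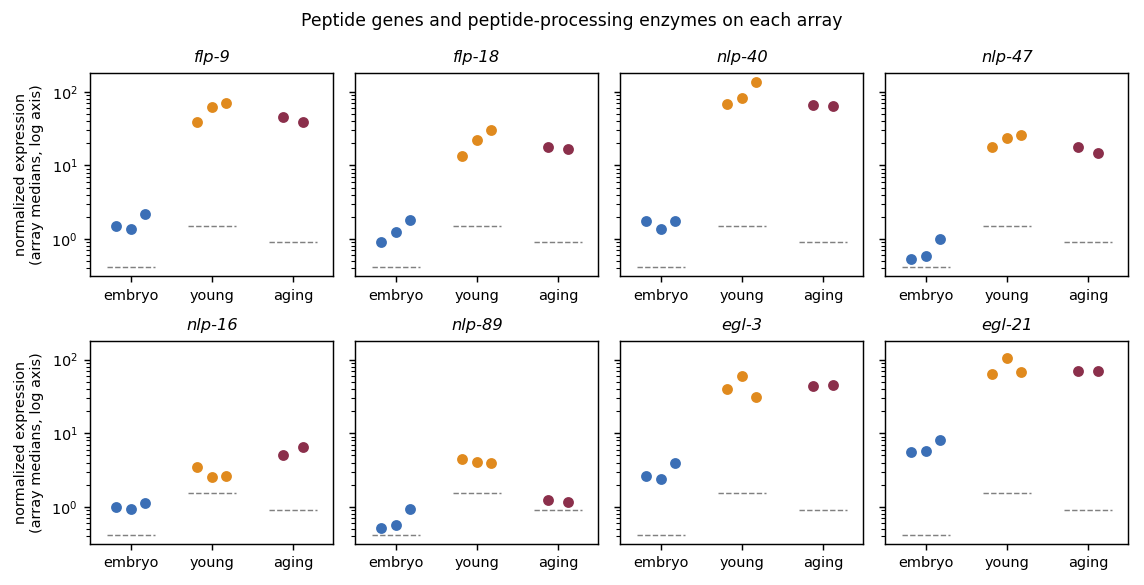
Points are single arrays (embryo, young adult, aging adult) on a log axis in array medians, for 6 peptide genes and the processing enzymes egl-3 and egl-21; dashes mark the mean noise level of each group. Embryo points lie below all adult points in every panel, and the aging points overlap or adjoin the young adult points except for nlp-16 (above) and nlp-89 (below).

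Peptides related to hormones of other animals were also lower in embryos, 4 of 4 measured genes in both comparisons. Over the 83 genes 84.3% and 86.7% were lower against young and aging adults, and over all genes 31.2% and 27.1%. The cholecystokinin-like gene nlp-12, made in the stretch-sensing neuron DVA, was above noise on 2 of 3 embryo arrays (0.463, 0.193 and 0.689) and read 6.76, 9.78 and 9.03 in young adults. The gene nlp-47, which encodes a peptide of the gonadotropin-releasing and adipokinetic hormone family, read 0.528, 0.580 and 1.01 in embryos and 17.8, 23.7 and 26.2 in young adults, a 32.9-fold difference (adjusted p = 2.16e-05). The orcokinin genes nlp-14 and nlp-15 were 4.91-fold (adjusted p = 0.000117) and 7.44-fold (adjusted p = 0.000511) lower in embryos, with nlp-15 above noise on 1 embryo array.

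Of the 4 sleep peptide genes all passed the test as lower in embryos than in young adults, nlp-22 only through its floor value. By the same test 84.3% of the 83 genes and 31.2% of all genes were lower. The gene flp-11, used by the sleep-promoting neuron RIS, read 0.662, 0.794 and 1.44 in embryos, 8.07, 10.2 and 16.1 in young adults and 10.97 and 10.4 in aging adults, a 12.1-fold difference between embryos and young adults (adjusted p = 0.000196). The stress-sleep genes of the ALA neuron, flp-13 and nlp-8, were 8.41-fold (adjusted p = 9e-05) and 3.04-fold (adjusted p = 0.00141) lower in embryos. With nlp-8 the embryo pools read 3.01, 2.81 and 3.81 and the young adult pools 6.74, 11.5 and 11.6, a gap below the median of 10.5-fold.

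Several more genes differed widely between embryos and adults, some from an embryo level near or under noise. The level of nlp-51 was 0.544, 0.710 and 0.842 in embryos, 19.5, 34.98 and 33.6 in young adults and 23.8 and 13.9 in aging adults, a 41.3-fold difference from young adults (adjusted p = 2.7e-05). The gene nlp-20 was above noise on 1 embryo array, at 0.486, and read 17.7, 29.1 and 31.99 in young adults and 24.1 and 19.2 in aging adults. Its fitted difference is set by the floor and is not given. For nlp-50, nlp-21 and nlp-17, embryo values lay between 0.0772 and 1.11, young adult values between 5.505 and 18.1, and no embryo pool overlapped any adult pool. The level of nlp-101 in young adults (2.42, 2.70 and 3.57) was at least 6.81-fold above the embryo bound (adjusted p = 7.02e-05). The gene nlp-36 was well above noise already in embryos, at 5.51, 5.54 and 5.87, and read 51.3, 33.2 and 52.4 in young adults and 30.5 and 27.3 in aging adults, a 7.92-fold difference from young adults (adjusted p = 3.65e-05).

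Some of the genes are neighbours in the WBcel235 annotation. On chromosome X flp-2 and flp-3 lie side by side with flp-28, which has no probe set of its own, and they were 15.3-fold and 13.1-fold lower in embryos than in young adults. On chromosome V nlp-9 and nlp-13 adjoin, at 15.2-fold and 12.6-fold lower. The 4 adjacent genes nlp-45, nlp-22, nlp-23 and nlp-2 on chromosome X were all dim, with no embryo array above noise for any of them, and only nlp-2 was above noise on both aging adult arrays.

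The embryo pools were not alike. Of the 50 genes above noise on all embryo arrays, 43 (86%) were highest in embryo replicate 3, where 23.04% of the 9462 genes of the whole array above noise on those arrays were highest. In the same pool 10 of 16 pan-neuronal markers, 8 of 12 body wall muscle markers, 5 of 12 epidermis markers, 5 of 11 intestine markers and 0 of 15 germ line markers above noise were highest. The labels describe all 3 pools as eggs of various stages, and the part of the pools' stage makeup was not tested. Without this pool 69 of 83 genes were lower in embryos than in young adults, and 70 than in aging adults.

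Most enzymes that make the peptides moved with them. Of 11 genes for peptide processing and amidation, 7 (63.6%) were lower in embryos than in young adults, 1 was higher and 3 did not pass the test. The median log2 difference was -3.16. Among all genes 31.2% were lower and 22.5% higher. All 7 had every young adult array above noise, beside 20.3% of all genes lower by that standard. The proprotein convertase gene egl-3 read 2.60, 2.38 and 3.90 in embryos, 39.8, 60.5 and 30.9 in young adults and 43.3 and 44.7 in aging adults (14.6-fold, adjusted p = 6.1e-05). Its partner egl-21, the carboxypeptidase, read 5.61, 5.73 and 8.12 in embryos, 62.9, 104.4 and 67.6 in young adults and 70.8 and 70.2 in aging adults (11.9-fold, adjusted p = 4.22e-05). The amidating lyase gene pgal-1 was 14.2-fold lower in embryos (adjusted p = 4.52e-05), and the convertase gene aex-5, which acts in intestine and muscle, fell from 14.4, 16.2 and 12.97 in young adults to 0.401, 0.498 and 0.820 in embryos. The 1 gene higher in embryos was cpd-2, a carboxypeptidase D homolog (1.41-fold, adjusted p = 0.0426).

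Genes for vesicle release were lower in part, and few peptide receptor genes had a measured level in young adults. Of 19 dense core vesicle genes 9 (47.4%) were lower and 1 was higher in embryos beside young adults, with a median log2 difference of -0.93. Among all genes 31.2% were lower and 22.5% higher. Examples are the syntaxin gene unc-64 (4.54-fold lower, adjusted p = 0.000837), the vesicle membrane protein gene ida-1 (3.64-fold, adjusted p = 0.00339), the synaptotagmin gene snt-1 (2.85-fold, adjusted p = 0.00308) and the diacylglycerol kinase gene dgk-1 (4.05-fold, adjusted p = 0.00134). Without scaling, snt-1 changed direction, to 0.05. The pan-neuronal markers had a median of -0.57, with 8 of 18 (44.4%) lower and 4 higher. Their lowest value, -3.86, equals that of egl-3, so the markers appear to share that gene with the processing list. Of 89 peptide receptor genes 44 (49.4%, beside 31.2% of all genes) were lower and 2 higher in embryos, but only 16 to 25 receptors were above noise on any 1 young adult array. In 11 of the 44 all young adult arrays were above noise, 12.4% of the 89 and less than the 20.3% of all genes lower by that standard. These 11 include the glycoprotein hormone receptor homolog fshr-1, which read 0.951, 0.986 and 1.28 in embryos and 14.02, 18.8 and 15.3 in young adults (15.0-fold, adjusted p = 1.65e-05). On the aging adult arrays, whose noise level was lower, 38 to 40 of the 89 receptors were above noise. Of all probe sets 51.1% to 51.3% were above noise there, and 41.4% to 45.1% on young adult arrays. Between the adult groups 0 of the 89 receptors passed as higher in aging adults, with a median log2 difference of 0.015. The 2 that passed as lower, npr-13 and npr-11, were above noise on no array. Over all genes 2.74% were higher and 4.44% lower. Against aging adults 20 of the 89 (22.5%) were lower in embryos with both aging adult arrays above noise, beside 21.3% of all genes. Of 8 peptide-degrading genes 2 (25%) were lower in embryos than in young adults and 2 were higher. These shares are near the 31.2% lower and 22.5% higher of all genes. The lower ones were the dipeptidyl peptidase gene dpf-2 and the neprilysin gene nep-17. The higher ones were the neprilysin gene nep-1 and acn-1, a homolog of angiotensin-converting enzyme needed for moulting.

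Between day 1 and day 6 of adulthood few of the genes passed the test, and few of all genes did. Of the 83, 1 was higher in aging adults (nlp-16), 3 were lower (nlp-24, nlp-33 and nlp-89) and 79 did not pass the test, beside 7.18% of all genes called, 2.74% higher and 4.44% lower. With every array of the higher group above noise, 1 was higher and 2 were lower, beside 1.89% and 3.66% of all genes. The median log2 difference was -0.07 for the 83 genes and -0.01 for all genes. No flp gene passed (0 of 25 in limma, 0 higher and 2 lower at an unadjusted p under 0.05), and the measured ones ran from -0.69 for flp-24 to 0.87 for flp-6. Without scaling, the median over all genes was 0.74 and over the 83 was 0.68, and 3 genes were higher (nlp-16, nlp-27 and nlp-99) and 2 lower (nlp-24 and nlp-33). Without young adult replicate 2, nlp-26 and nlp-36 joined the genes lower in aging adults, which made 5, in a fit that called 7.96% of all genes.

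How much change could have been missed is read from the intervals. Of the 64 genes above noise on all 5 adult arrays, 57 had a log2 difference between -1 and 1, but for only 13 did the whole 95% interval lie within those limits: flp-3, flp-11, flp-13, flp-16, flp-19, nlp-8, nlp-11, nlp-13, nlp-14, nlp-49, nlp-57, nlp-80 and nlp-81. For nlp-11, for instance, young adults read 15.7, 25.2 and 29.4 and aging adults 22.1 and 22.6. For the others the interval reached a change of 2-fold or more in at least one direction. Of the 64, 23 had a difference above 0 and 41 below, a split that holds only relative to the array medians. The gene nlp-6 is among the 64 through 1 of its 2 probe sets, which disagreed in adults, and its difference of 1.90 describes neither.

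**Figure D4:**
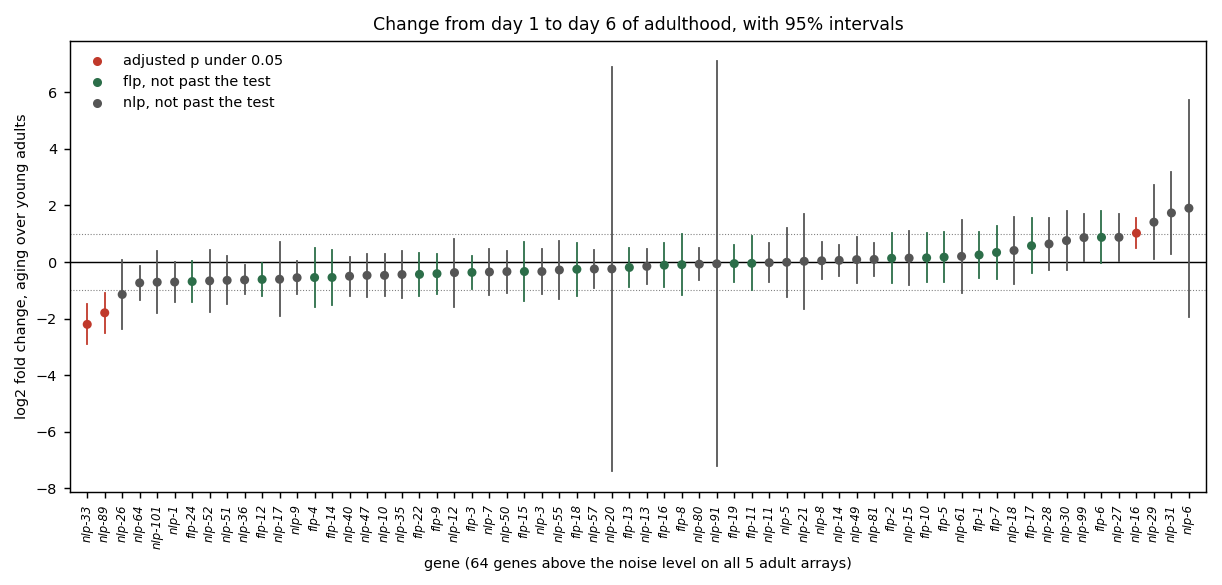
Points are log2 differences of aging adults (n = 2) minus young adults (n = 3) for the 64 genes above noise on all 5 adult arrays, ordered by size, and bars are 95% intervals from the fit to all 8 arrays. The genes that passed the test are nlp-33 and nlp-89, which lie below -1, and nlp-16, which lies above 1. Other genes, nlp-29 and nlp-31 among them, also have intervals clear of 0 but did not pass after adjustment. The intervals of nlp-20, nlp-91 and nlp-6 are wide, and the point of nlp-6 is the median of 2 probe sets that disagreed.

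The gene nlp-33 of the glycine- and tyrosine-rich group was lower in aging adults with both groups above noise on every array. It read 18.6, 20.4 and 28.7 array medians in young adults and 3.72 and 6.25 in aging adults, and the embryo pools, at 4.37, 3.96 and 5.57, lay in the range of the aging ones. The level in aging adults was 4.60-fold lower (log2 difference -2.20, SE 0.30, adjusted p = 0.00768), and the call held with any 1 array left out. Its only probe set is of the _s_at type.

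The gene nlp-89 read 4.49, 4.01 and 3.93 in young adults and 1.22 and 1.17 in aging adults, 3.46-fold lower (log2 difference -1.79, SE 0.29, adjusted p = 0.0158). The aging values were close to the noise level of 0.911 to 0.917, and leaving out either aging adult pool ended the call (adjusted p = 0.0671 without replicate 1 and 0.101 without replicate 2), as did leaving intensities unscaled (log2 difference -1.04, adjusted p = 0.0615). Its embryo pools were lower again, at 0.519, 0.574 and 0.932.

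The third gene lower in aging adults, nlp-24, was the 1 gene of the 83 higher in embryos than in aging adults, with embryo pools at 5.07, 4.86 and 6.38. Young adults read 3.88, 0.748 and 5.27, with replicate 2 below noise, and both aging adult pools were at the floor. The difference between the adult groups passed the test (adjusted p = 0.000775), but its size is set by the floor, and with intensities floored at the highest noise level it was -0.95 on the log2 scale and did not pass (adjusted p = 0.460). The level in aging adults was at least 5.91-fold lower than in embryos (adjusted p = 5.25e-05).

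The only increase past the test was that of nlp-16, from 3.51, 2.51 and 2.66 in young adults to 5.13 and 6.57 in aging adults. Both of its probe sets were higher in both aging pools. The difference of 2.03-fold (log2 1.02, SE 0.22, adjusted p = 0.0423) was close to the threshold and was lost without young adult replicate 2 (adjusted p = 0.0792) or 3 (0.0572), without either aging adult replicate (0.0846 and 0.209) or any 1 embryo replicate (0.0642 to 0.0851), but not without young adult replicate 1 (0.032).

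Among the 79 genes that did not pass between the adult groups were nlp-1, nlp-64 and nlp-99, named after their values were seen. The gene nlp-1, made in the AWC olfactory neurons, read 6.41, 10.2 and 12.8 in young adults and 6.02 and 5.55 in aging adults (log2 difference -0.70, SE 0.30, adjusted p = 0.210). For nlp-64 the young adult pools read 7.41, 10.5 and 11.2 and the aging adult pools 6.23 and 5.28 (-0.74, SE 0.26, adjusted p = 0.136). In the other direction, nlp-99 read 5.41, 7.04 and 8.90 and then 13.4 and 12.04 (0.87, SE 0.35, adjusted p = 0.189).

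Over the 10 measured genes of the glycine- and tyrosine-rich group the median log2 difference between aging and young adults was 0.82, although in limma 0 passed as higher (4 at an unadjusted p under 0.05) and 2 as lower (nlp-24 and nlp-33), and young adult replicate 3 stood apart. In the WBcel235 annotation nlp-27 to nlp-31 lie next to each other on chromosome V together with nlp-34, which has no probe set of its own. All 5 were read by probe sets of a type that may bind related transcripts, so their values may not be independent. The gene nlp-29 read 10.9, 10.3 and 12.3 in embryos, 9.72, 13.8 and 37.2 in young adults and 34.3 and 60.3 in aging adults. For nlp-31 embryos read 14.6, 13.7 and 13.6, young adults 9.05, 15.1 and 42.1, and aging adults 43.0 and 82.9. In both genes the first 2 young adult pools lay around the embryo level and replicate 3 was near the lower aging pool.

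Over all arrays neither passed the test (nlp-29, log2 difference 1.41, SE 0.55, adjusted p = 0.177; nlp-31, 1.74, SE 0.61, adjusted p = 0.141). Without young adult replicate 3, nlp-29 (1.97, adjusted p = 0.0154), nlp-30 (1.21, adjusted p = 0.0239) and nlp-31 (2.35, adjusted p = 0.0154) passed, and nlp-16 did not, so that 3 genes were higher and 3 lower. Leaving out that pool also raised the share of all genes called from 7.18% to 11.7%. Summed over nlp-27 to nlp-31, replicate 3 was 2.39-fold above the mean of the other two. The genes nlp-27 (26.6, 18.3 and 40.8 in young and 39.2 and 63.0 in aging adults) and nlp-28 (14.8, 28.02 and 40.1, then 34.8 and 45.4) had adult ranges that overlapped. All 5 were lower in embryos than in aging adults, from 4.08-fold for nlp-29 (adjusted p = 0.0231) to 19.1-fold for nlp-27 (adjusted p = 0.000125). Against young adults nlp-27, nlp-28 and nlp-30 were lower in embryos and nlp-29 and nlp-31 did not pass.

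The remaining members of that group did not pass between the adult groups over all arrays. In nlp-25 and nlp-32 the signal was above noise on both aging adult arrays, at 3.58 and 4.31 and at 1.43 and 7.51, and on no young adult or embryo array. The adjusted p was 0.600 for nlp-25 and 0.189 for nlp-32. With other floors nlp-25 passed as higher in aging adults (log2 difference 2.60, adjusted p = 0.0463 with a floor of 0.1 array medians, and 1.23, adjusted p = 0.0012 with the floor at the highest noise level). The higher floor set all young adult and embryo values of nlp-25 to the same value, and the floor of 0.1 all its embryo values. That removed their spread, so these p-values cannot decide whether nlp-25 rose. In contrast to nlp-25 and nlp-32, nlp-26 read 5.89, 2.01 and 5.61 in young adults and 2.22 and 1.52 in aging adults, and 0.419, 0.423 and 0.584 in embryos, with an adult difference of -1.14 (SE 0.51, adjusted p = 0.231).

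**Figure D5:**
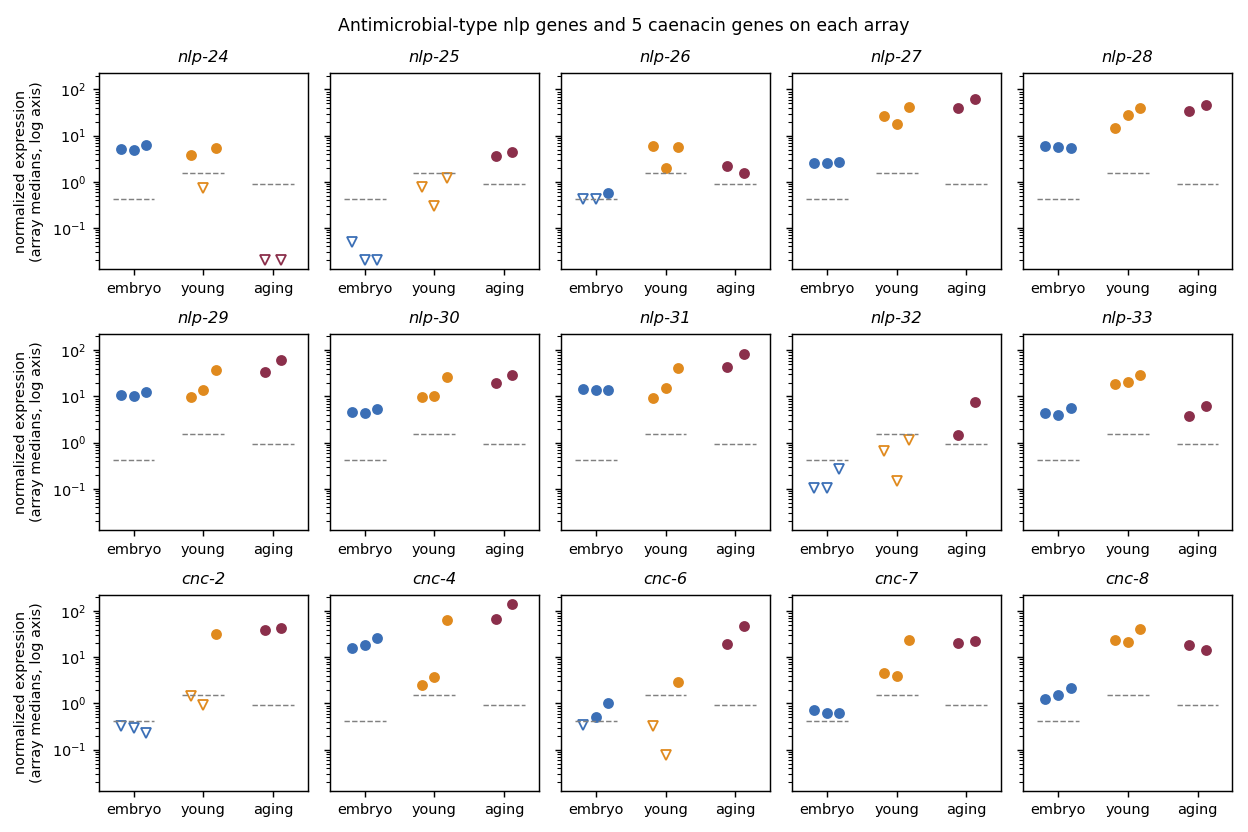
Each panel is 1 gene, 10 nlp genes of the glycine- and tyrosine-rich group and 5 caenacin genes, with 1 point per array in array medians on a log axis; open triangles are at or below the array's noise level (values under 0.02 are drawn at 0.02) and dashes mark the mean noise level of each group. In nlp-29, nlp-31, cnc-2, cnc-4 and cnc-7 the third young adult point lies with the aging points and above the other 2 young adult points.

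Caenacins, a second family of epidermal antimicrobial peptides that the nlp rule does not take in, were highest in young adult replicate 3 in each of the 4 measured on all young adult arrays (cnc-3, cnc-4, cnc-7 and cnc-8), but differed in where that pool lay beside the aging pools. The gene cnc-2 read 1.48, 0.940 and 32.4 in young adults, with only replicate 3 above noise, and 39.3 and 42.6 in aging adults. For cnc-4 the young adult pools read 2.54, 3.84 and 64.7 and the aging adult pools 67.7 and 144. For cnc-7 they read 4.65, 3.86 and 23.6 and then 20.3 and 22.9. In these 3 genes replicate 3 was near the aging level. The gene cnc-6 read 0.326, 0.0775 and 2.99 and then 19.4 and 48.1, so that replicate 3 was far below the aging pools, and its adult difference just missed the threshold (adjusted p = 0.0501). The gene cnc-8 lay the other way, at 23.9, 21.4 and 40.7 in young and 18.2 and 14.6 in aging adults (log2 difference -0.75, adjusted p = 0.237), and cnc-3 differed by 0.35 (adjusted p = 0.737). Of the other two, cnc-1 was above noise on the aging adult arrays alone and cnc-5 on no array. Of 8 caenacins 0 passed in aging against young adults (limma; 4 higher and 0 lower at an unadjusted p under 0.05). Without replicate 3, 4 of the 8 passed as higher and 0 as lower: cnc-2 (log2 difference 5.12, adjusted p = 0.00156), cnc-4 (4.98, adjusted p = 0.00296), cnc-6 (7.59, adjusted p = 0.00662) and cnc-7 (2.35, adjusted p = 0.00209). In that fit 11.7% of all genes were called, beside 7.18% with all arrays.

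Young adult replicate 3 also read high among the peptide genes at large. Of the 64 genes above noise on all young adult arrays, 49 (76.6%) were highest there and 57 (89.1%) were lowest in replicate 1, while of all 6500 such genes 46.4% were highest in replicate 3 and 35.03% lowest in replicate 1. Its excess over the mean of the other two was 0.54 on the log2 scale for the median peptide gene and 0.16 for the median of all genes. In the aging group 56 (77.8%) of the 72 genes above noise on both arrays were higher in replicate 1, beside 45.6% of all 8261 such genes.

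Markers of 3 tissues moved between the adult groups. Of 16 epidermis markers 6 (37.5%) were lower in aging adults and 0 higher, beside 4.44% of all genes lower and 2.74% higher. In 4 of the 6 every young adult array was above noise, 25% of the 16 beside 3.66% of all genes. The summed level of the 16 was 599 to 847 array medians in young and 52.8 to 73.6 in aging adults. Their median log2 difference was -1.999. On young adult arrays 8 to 11 of them were above noise, and on aging adult arrays 5 or 6. Of 12 body wall muscle markers 4 (33.3%) were lower, and of 15 intestine markers 2 (13.3%), all with every young adult array above noise. Pan-neuronal markers were at a summed 217 to 259 in young and 234 to 275 in aging adults, with 0 of 18 past the test (limma; 2 higher and 0 lower at an unadjusted p under 0.05). The part of these shifts in the nlp-33 and nlp-89 results was not tested. Among the processing enzymes only cpd-2 passed between the adult groups, at 3.16, 3.44 and 2.81 in young and 1.39 and 1.21 in aging adults (2.41-fold lower, adjusted p = 0.0108), while egl-3 differed by 0.06 (SE 0.32) and egl-21 by -0.11 (SE 0.27).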

How the data were processed

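RNA from 8 whole-animal pools was hybridised to 1-colour Affymetrix arrays. The deposited intensities were made by the authors with GeneChip Operating Software and loaded into Rosetta Resolver; they are background-subtracted and can be negative. A deposited table of the authors' signed fold changes and p-values was not used. Of 22548 probe sets, 20766 carry 1 gene, 887 several and 895 none in the platform annotation; only the first were used. Intensities under 0.01 were set to 0.01, divided by the array median, log2-transformed and summarised per gene as the median over probe sets. All 17118 genes were fitted on all 8 arrays with limma 3.58.1 (R 4.3.3, eBayes with a variance trend), with Benjamini-Hochberg adjustment and a threshold of 0.05. The script was tested on simulated data. Folds are 2 to the power of the fitted log2 difference; where no array of the lower group was above noise, the bound of the lower group was its noise level or its own signal, whichever was higher ("at least"). Probes differ in response, so levels of different genes were ranked only to choose which genes to name.

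Genes were named where they passed the test with groups that did not overlap and the higher group above noise on every array (up to 12 in each direction), where they had the 5 highest means in a group, where they stood in a role list, and up to 4 per pathway list; others were named after their values were seen. Members and lists were chosen with earlier results of these data known. Alternatives were quantile normalization, no rescaling, other floors, a filter on dim genes, fits to 2 groups, a replicate block, the highest probe set, no _s_at or _x_at sets, no variance trend, and each replicate left out.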

Additional observations from a re-analysis of the deposited data

How the results depend on the processing

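Counts lower in embryos held within 1.5 times under every alternative, at 48 to 71 genes against young adults and 50 to 73 against aging adults (48 and 50 without _s_at and _x_at probe sets, where 59 genes remained). In embryos against young adults the count higher went from 0 to 1 without rescaling. In aging against young adults the count higher, 1, became 0 with quantile normalization, in a fit to the 2 groups alone, with the replicate block and without a variance trend, 3 without rescaling, and 2 with a floor of 0.1 after scaling and with intensities floored at the highest noise level, 1.68 array medians, an alternative added after seeing the data. With single replicates left out it was 0 to 3, and the count lower was 2 to 5 beside 3. The causes were not tested.

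Replicate numbers recur across groups, and whether they pair the samples is not known. Deviations of same-numbered arrays correlated at -0.06 to 0.146 over 5553 genes, and those of differently numbered arrays at -0.148 to 0.057. Deviations cancel out within a group, so these correlations cannot decide the question. With the replicate block 69 and 66 genes were lower in embryos than in young and aging adults, 0 were higher and 2 lower in aging than in young adults (nlp-89 had an adjusted p of 0.0774), and flp-11 (0.26) and flp-18 (0.00594) changed sign.

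For named genes, 622 of 701 values across alternatives kept direction and side of the threshold in aging against young adults, 928 of 962 in embryos against young adults and 904 of 965 in embryos against aging adults. Signs that turned in aging against young adults without rescaling, which moved the median of all genes from -0.01 to 0.74, were those of flp-9 (0.34), flp-11 (0.70), flp-13 (0.56), flp-18 (0.49), flp-22 (0.31), nlp-3 (0.41), nlp-9 (0.20), nlp-12 (0.38), nlp-36 (0.12), nlp-40 (0.25), nlp-47 (0.28) and nlp-51 (0.10). Quantile normalization turned flp-9 (0.015), nlp-8 (-0.00164), nlp-14 (-0.0459) and nlp-40 (0.0749). None of these genes had passed the test. With single replicates left out, values spanned 0 for flp-10 (-0.23 to 0.35), flp-11 (-0.27 to 0.23), flp-18 (-0.57 to 0.0139), nlp-8 (-0.21 to 0.18), nlp-14 (-0.12 to 0.19) and nlp-15 (-0.13 to 0.29). In embryos against young adults signs turned without rescaling for nlp-29 (0.94), nlp-30 (0.0177), nlp-31 (1.20) and snt-1 (0.052) and with quantile normalization for nlp-31 (0.29), whose values with single replicates left out were -0.86 to 0.25. In embryos against aging adults nlp-33 turned with quantile normalization (0.00569) and without rescaling (0.74), and ranged from -0.45 to 0.30 with single replicates left out. Low signal limits these values: on young adult arrays 12 of the 83 genes were never above noise.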

Other observations

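The 2 probe sets of nlp-6 disagreed in adults. On the 5 adult arrays one read 9.12 to 25.0 array medians and the other -0.02 to 0.785, while in embryos they read 0.344 to 0.953 and 0.856 to 1.18, so the median used for nlp-6 describes neither set. That median was below noise on young adult replicate 1 (0.0691 array medians), and the gene counts as above noise there through the brighter set.

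Above noise on both aging adult arrays and on no young adult array were 3 genes, nlp-25, nlp-32 and nlp-53. The gene nlp-53 read 1.76 and 1.21 array medians in aging adults, against an own-array noise level of 0.917 and 0.911, and at most 0.875 in young adults, whose noise level was higher. None of the 3 differences passed the test over all arrays, and nlp-25 passed as higher in aging adults under both other floors tried (adjusted p = 0.0463 with a floor of 0.1 array medians and 0.0012 with the floor at the highest noise level). Those floors set all its embryo values, and the higher floor also all its young adult values, to the same value. The p-values therefore cannot decide whether nlp-25 rose.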
